A study of Mus musculus with 27 samples.

Results

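The 10 genes described here encode the 2 cytoplasmic actins and 8 tubulins of the mouse liver: the actin genes *Actb* and *Actg1*, the beta-tubulin genes *Tubb2a*, *Tubb2b*, *Tubb4b*, *Tubb5* and *Tubb6*, and the alpha-tubulin genes *Tuba1a*, *Tuba1b* and *Tuba1c*. They were taken by gene symbol from 17655 genes listed in at least 1 of 4 deposited tables of RNA-seq counts. The genes were selected on their counts across vector, stage and cohort in all 27 libraries, so their levels and differences are given as a description and carry no p-value. Tests across all genes are given only for genes outside the 10.

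Each of the 27 libraries came from the whole liver of 1 mouse, in 9 groups of 3. All mice, controls included, carried *Kdm5b* fl/fl, a floxed allele of the gene for the histone H3K4 demethylase KDM5B. WT mice received a control adeno-associated virus (AAV), KO mice received AAV-CMV-Cre, whose promoter is not specific to a cell type, and HepKO mice received AAV8-TBG-Cre, whose promoter is active in hepatocytes. All mice were fed a Western diet with alcohol (WDA). WDA livers, from experiment 11, are labelled with 8 weeks of WDA, and the labels of resolution (Res) livers, from experiment 12, give 16 weeks of WDA and then resolution for 4 weeks. WT and KO groups existed in females and males at each stage, and HepKO only in WDA females. The labels name the vector before the diet in experiment 11 and between diet and resolution in experiment 12, so KO against WT covers loss of *Kdm5b* over different periods. In the study, resolution meant chow and plain water, so the Western diet ended together with the alcohol. Stage, experiment, diet, length of WDA and timing of the vector cannot be told apart. No liver from a mouse never given alcohol was analysed here. The labels give no age. In whole liver, fewer cells of a type and less RNA per cell cannot be told apart.

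Cytoplasmic actin polymerizes into the filaments that shape the cell cortex, line the bile canaliculi of hepatocytes and drive contraction of activated stellate cells. When free actin monomer falls, the coactivator MRTF enters the nucleus and, with serum response factor (SRF), activates many cytoskeletal genes through the CArG box, a motif found in actin gene promoters. Alpha- and beta-tubulin form the heterodimer of microtubules, along which hepatocytes move secretory vesicles. Tubulin mRNAs are subject to autoregulation: when free dimer is in excess, the factor TTC5 recognizes the emerging tubulin chain and the mRNA is degraded. *Actb* is also a customary reference gene, and the RT-PCR values of this study were calculated relative to it.

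RefSeq promoter windows (GRCm38.p6, from 250 bases before to 50 bases after the transcription start) matched 7 of the 10 genes: *Actg1*, *Tubb2a*, *Tubb4b*, *Tubb5*, *Tuba1a*, *Tuba1b* and *Tuba1c*. *Actb*, *Tubb2b* and *Tubb6* were not matched. The 250 bases before the start are shown for 3 genes, *Actg1* and *Tubb2a*, whose levels varied widely between livers, and *Tubb4b*, whose level varied little. Capitals mark the CArG box, the CCAAT box (letters CCAAT, either strand) and the TATA box (letters TATAAA, either strand). All 3 genes lie on the minus strand, and sequences run 5′ to 3′ towards the start.
Actg1, chr11:120348496-120348745: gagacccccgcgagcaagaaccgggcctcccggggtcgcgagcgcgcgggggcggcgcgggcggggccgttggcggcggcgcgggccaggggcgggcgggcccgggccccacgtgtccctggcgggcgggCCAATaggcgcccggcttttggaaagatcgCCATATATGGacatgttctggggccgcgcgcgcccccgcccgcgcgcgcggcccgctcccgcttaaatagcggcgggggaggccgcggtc
Tubb2a, chr13:34078009-34078258: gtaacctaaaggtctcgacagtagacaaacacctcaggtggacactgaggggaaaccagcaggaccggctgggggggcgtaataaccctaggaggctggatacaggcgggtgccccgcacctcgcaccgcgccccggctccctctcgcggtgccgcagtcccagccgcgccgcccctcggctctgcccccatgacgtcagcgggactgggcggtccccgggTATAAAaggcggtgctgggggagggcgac
Tubb4b, chr2:25224703-25224952: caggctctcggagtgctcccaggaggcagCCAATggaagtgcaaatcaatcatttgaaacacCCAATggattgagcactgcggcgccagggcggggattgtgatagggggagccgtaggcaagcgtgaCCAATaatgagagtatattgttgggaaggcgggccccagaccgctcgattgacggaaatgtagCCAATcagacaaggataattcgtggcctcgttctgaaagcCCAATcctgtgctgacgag

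*Actg1* was the only one of the 7 with a CArG box, spanning positions -90 to -81 from the start, and 1.47% of 32851 promoter windows held one in the same 250 bases before the start, over which all shares are given. It also had a CCAAT box at -120, a motif held by 33.8% of windows. *Tubb2a* was the only one of the 7 with a TATA box before the start, at -29, against 12.4% of windows. *Tubb4b* had 5 CCAAT boxes, and 5 of the 7 genes had at least 1 before the start. The GC box (GGGCGG, either strand) was found before the start of 5 of the 7 genes, against 32.7% of windows, with 6 in *Actg1*. The E box (CACGTG) was found in 2 of the 7, *Actg1* and *Tubb5*, against 6.02% of windows. These matches are descriptions of letters and not of bound factors.

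In GRCm38.p6, *Actb* lies on chromosome 5 (142903115 to 142907976) and *Actg1* on chromosome 11 (120345687 to 120348495). *Tubb2a* (34074278 to 34078008) and *Tubb2b* (34127008 to 34130354) are neighbours on chromosome 13, and *Tuba1b* (98931429 to 98934390), *Tuba1a* (98949847 to 98953501) and *Tuba1c* (99029891 to 99038105) form a cluster on chromosome 15. *Tubb4b* lies on chromosome 2 (25222158 to 25224702), *Tubb5* on chromosome 17 (35833920 to 35838301) and *Tubb6* on chromosome 18 (67390731 to 67402749). The coding sequences of the 3 alpha-tubulin genes were 97.1% to 98.3% identical, with identical runs of up to 468 bases. Those of *Tubb2a* and *Tubb2b* were 96.5% identical and shared a run of 551 bases. *Actb* and *Actg1* were 88.6% identical, with a longest shared run of 62 bases. How reads were split within the alpha-tubulin genes, and between *Tubb2a* and *Tubb2b*, is therefore uncertain, since reads from a shared run can fit either gene.

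The libraries held 14634602 to 19388251 summed counts. No pair of libraries in a group agreed within sampling noise (chi-square per degree of freedom 14.5 to 296 over 27 pairs). *Kdm5b*, counted over the whole gene, was 16.6 to 31 CPM (library-size-scaled counts) in WT livers, 7.89 to 24.3 in KO livers and 8.27 to 17.6 in HepKO livers. KO and WT livers did not overlap in 3 of the 4 cohorts of stage and sex. The log2 fold change was -0.55 in Res females and -0.59 in Res males. In WDA males it was only -0.16 (SE 0.09), at 20.3 to 21.8 CPM in KO and 23.7 to 24.6 in WT livers. In WDA females, the library labelled KO mouse 1 (24.3) lay inside the WT range (21.5 to 31), so the KO against WT values of that cohort rest on a library that its *Kdm5b* level does not set apart. No *Kdm5b* difference between vectors passed edgeR's quasi-likelihood test (Benjamini-Hochberg adjusted p = 0.109 to 1). Summed counts of 4 Y-linked genes were 6 to 39 in female and 1440 to 2748 in male libraries. KO Res male mouse 5 carried 433 CPM of *Cyp3a41a*, a cytochrome P450 of female liver, against 0 to 19.5 in the other males.

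Per transcript length, in the deposited FPKM (fragments per kilobase of transcript, scaled to library size), the actins led and the order was *Actb*, *Actg1*, *Tubb2a*, *Tubb4b*, *Tuba1c*, *Tuba1b*, *Tubb5*, *Tubb6*, *Tuba1a*, *Tubb2b*. Median FPKM over the 27 livers was 208 for *Actb* and 171 for *Actg1*, and *Actb* was the higher in 23 livers. *Tubb2a* (median 96.5) exceeded *Tubb4b* (66) in 19 livers, and *Tubb6* (3.6) exceeded *Tuba1a* (2.9) in 19, so neither pair had a fixed order. *Tuba1c* (39.4), *Tuba1b* (20.2), *Tubb5* (15.6) and *Tubb6* kept this order in each of the 27 livers. The same order of medians was found after rescaling FPKM to TPM.

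Among the 5 beta-tubulin genes, *Tubb2a* and *Tubb4b* supplied most of the summed FPKM. *Tubb2a* accounted for a median of 53.4% (27.8% to 71.6%) and *Tubb4b* for 35.2% (17.4% to 61.7%). The extremes were mirror images: WT WDA male mouse 21 had the lowest *Tubb2a* and the highest *Tubb4b* share, and WT WDA female mouse 7 the reverse. *Tubb5*, a beta-tubulin of most dividing cells, held 5.39% to 13.8%, and *Tubb6* 1.33% to 3.09%. Among the 3 alpha-tubulin genes, *Tuba1c* held a median of 62.4% (46.7% to 75.5%), *Tuba1b* 32.7% and *Tuba1a* 4.64%.

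The genes differed in their spread between livers. Between the lowest and the highest liver, CPM (scaled by the trimmed mean of M-values, TMM) differed 8.34-fold for *Tubb2a*, 5.66-fold for *Actg1*, 4.93-fold for *Tubb6* and 4.83-fold for *Tuba1a*. The range was narrowest for *Tuba1c* (1.81-fold) and *Tubb4b* (1.99-fold), and *Actb* spanned 2.71-fold (202 to 546 CPM). *Tubb2b*, a tubulin best known from neurons, was nearly absent. It had 0 counts in 11 livers, which allows up to 3 counts in each, and at most 18 in all but 2 livers.

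**Figure D1:**
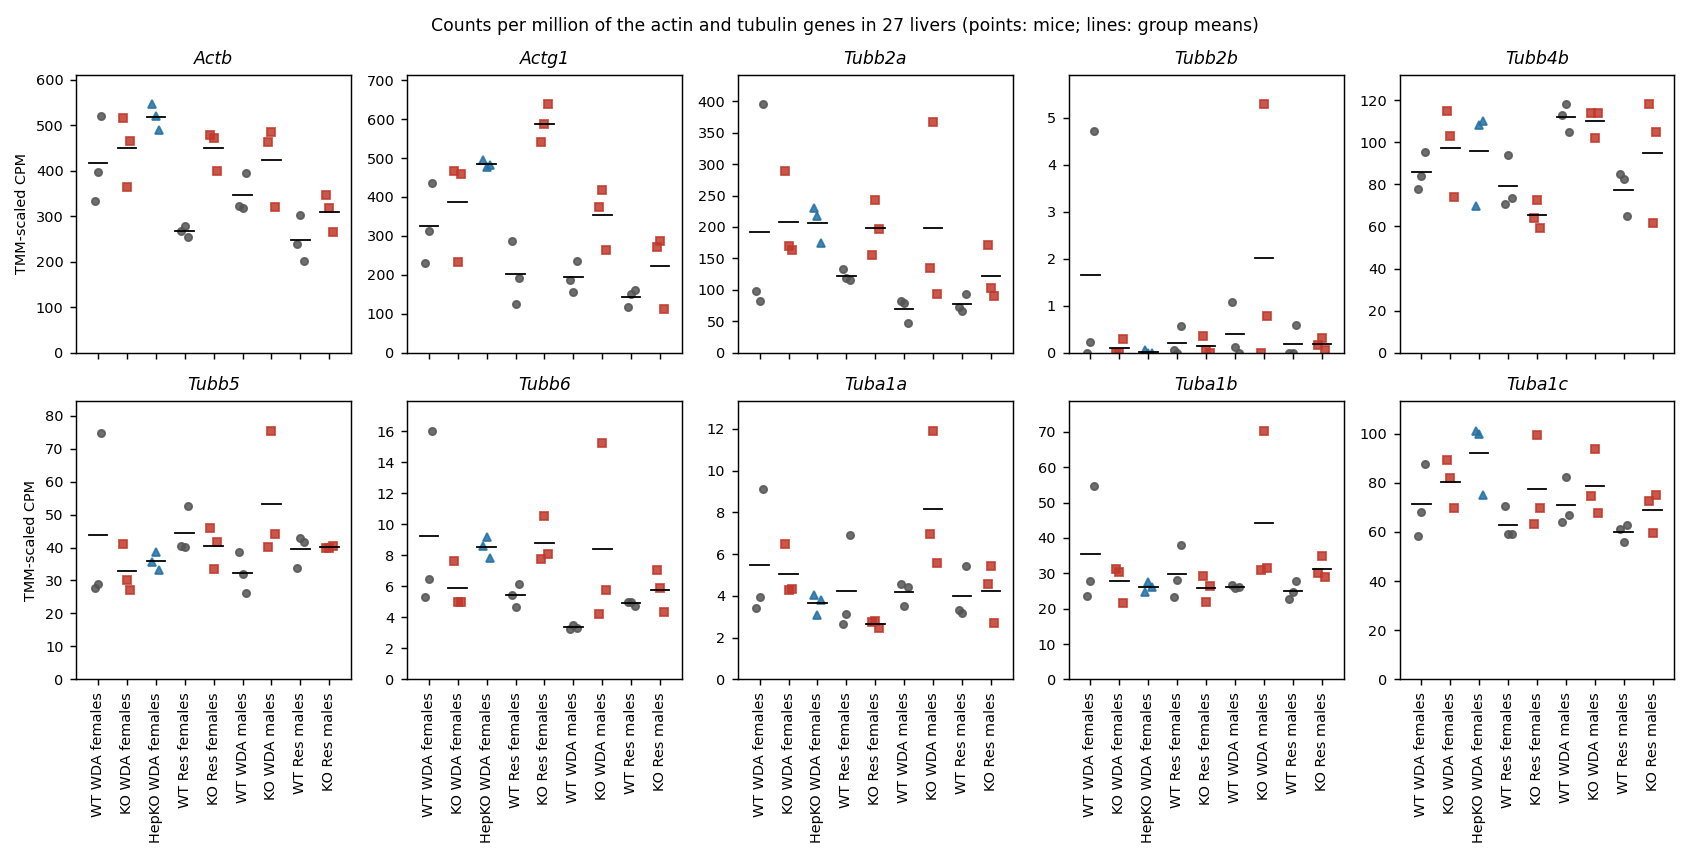
TMM-scaled CPM (y axis, from 0) of each of the 10 genes in each liver, by group (x axis). Points are mice and lines are group means of 3. *Actg1* is highest in the KO Res females (540 to 638), and 1 liver each of the WT WDA females (mouse 7) and KO WDA males (mouse 17) stands above all others in *Tubb2a*, *Tubb2b*, *Tubb5*, *Tubb6*, *Tuba1a* and *Tuba1b*.

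WT WDA female mouse 7 and KO WDA male mouse 17 stood apart in the tubulins. *Tubb2b* reached 107 and 126 counts in these livers. *Tubb2a* reached 395 and 367 CPM, against at most 289 in the other 25 livers, and was 4.37-fold and 3.22-fold above the mean of their group mates. *Tubb5* reached 74.6 and 75.3, against at most 52.6 elsewhere. *Tubb6* (16 and 15.2, against at most 10.5), *Tuba1a* (9.12 and 11.9, against at most 6.99) and *Tuba1b* (54.8 and 70.2, against at most 38.1) did the same. In *Actb*, *Actg1*, *Tubb4b* and *Tuba1c* another liver had the highest TMM-scaled CPM, but this depended on the scaling, since these 2 libraries had the largest TMM factors (1.369 and 1.317). In the deposited FPKM they were the top 2 livers for *Actb* (425 and 380, next 326), *Tubb4b* (96.2 and 98.2, next 86.9) and *Tuba1c* (69.2 and 71, next 58.5), and *Actg1* remained highest in KO Res female mouse 4 (374).

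The same 2 livers had the highest summed levels of cholangiocyte, stellate cell and macrophage markers, but not of endothelial or lymphocyte and neutrophil markers, which were highest in KO WDA female mouse 2 (404 CPM) and KO Res female mouse 2 (57.4 CPM). The 8 cholangiocyte markers, among them *Spp1* and the keratin genes *Krt7* and *Krt19*, summed to 494 CPM in mouse 7 and 566 in mouse 17. Their median was 41.9 over all livers, with 270 in the next liver, WT Res female mouse 13. Most of the sum in mouse 17 was *Spp1* (474 CPM, median 20.8 over all livers). The 10 stellate cell and myofibroblast markers, among them the collagen genes *Col1a1* and *Col3a1*, summed to 461 and 530 CPM. Their median was 75.5, with 213 in the next liver, again WT Res female mouse 13. *Col3a1* was the largest part in mouse 17 (195 CPM). Of the list, *Acta2* was highest in WT Res male mouse 9 (9.60 CPM) and *Lrat* in WT WDA female mouse 5 (20.6). The 12 macrophage markers summed to 1200 and 847 CPM, with a median of 510 and 820 in HepKO mouse 13. Of them, *Lyz2* (400 CPM) and *Gpnmb* (251) were highest in mouse 7. *Clec4f* and *Vsig4* were highest in KO Res female mouse 2, and *Adgre1*, *Cd5l* and *Timd4* in HepKO mouse 13. The sum of the 9 cell cycle markers was also highest in mice 7 and 17 (53.6 and 45.2 CPM, next 39.1, median 31.5). Of these, *Pcna*, the most abundant, was highest in KO Res female mouse 4 (29 CPM) and *Mcm2* in KO WDA male mouse 16 (9.66). The 10 hepatocyte markers were lowest in mouse 7 (84300 CPM) and 90300 CPM in mouse 17, against a median of 123000. Every library was rich in the albumin transcript *Alb* (54100 to 142000 CPM). *Krt7* and *Krt19* were at 0 in at least 1 liver each and did not exceed 6.99 CPM. The part of these cell types, or of dividing cells, in the tubulin levels was not tested.

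**Figure D2:**
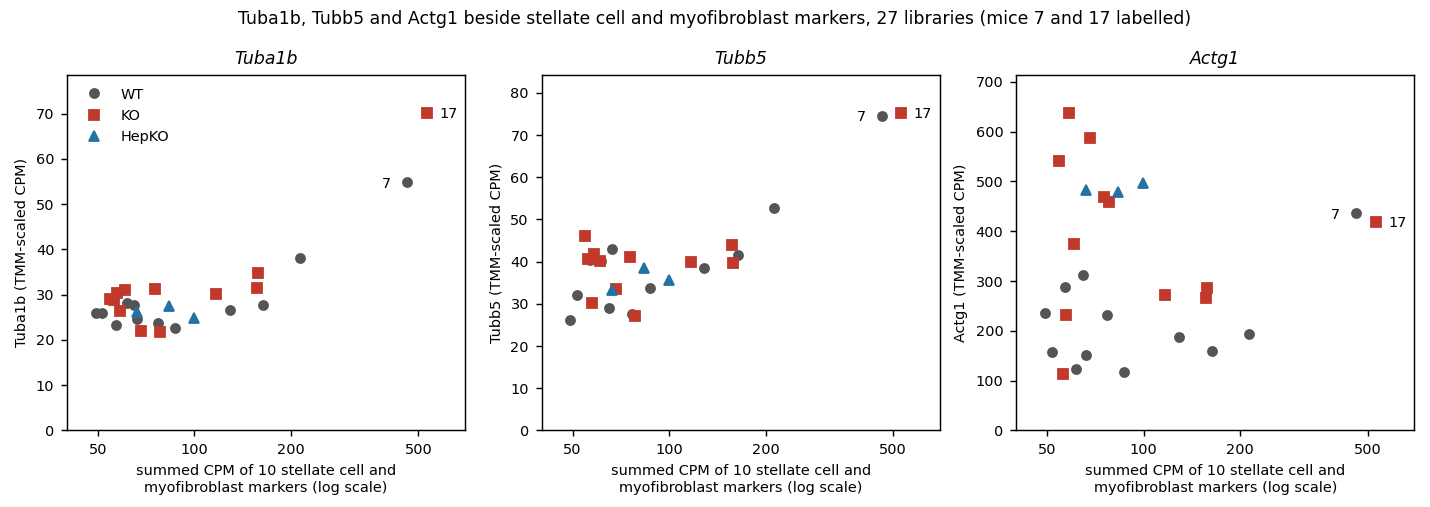
*Tuba1b*, *Tubb5* and *Actg1* (y axes, TMM-scaled CPM) against the summed CPM of 10 stellate cell and myofibroblast markers (x axis, log scale) in 27 livers, by vector. Mice 7 and 17 lie at the far right with the highest *Tuba1b* and *Tubb5*, whereas the highest *Actg1* values, 540 to 638, belong to livers with marker sums below 70.

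Comparing KO or HepKO with WT livers asks how loss of *Kdm5b* bore on these genes. Across all genes, edgeR called none in KO against WT, that is 0% of 12397 genes in WDA females, of 12419 in WDA males, of 12577 in Res females and of 12620 in Res males, and none of 12413 in HepKO against WT WDA females. At an unadjusted p under 0.05 it had 385, 958, 2413, 183 and 1249 genes in that order, and DESeq2, the test named by the study, called 8, 17, 636, 7 and 230. HepKO against KO WDA females had 2 calls (0.0162% of 12351), the circadian clock genes *Ciart* (log2 fold change 2.86, SE 0.20, adjusted p = 0.00117) and *Dbp* (1.85, SE 0.20, adjusted p = 0.0328), with 709 genes at an unadjusted p under 0.05 and 38 calls by DESeq2. The part of collection time in this comparison was not tested. Among the vector comparisons, *Tubb2b* passed the filter on low counts only in KO against WT WDA males, and no fold change is given for it, so that 9 genes could be fitted in each of the other vector comparisons. KO and HepKO were compared with the same WT WDA females, so those values share their controls.

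*Actg1*, which encodes gamma-actin, showed the widest separation, in Res females. Its CPM was 540, 588 and 638 in the KO livers and 288, 124 and 193 in the WT livers. The lowest KO liver lay well above the highest WT liver, and the WT livers spread more than 2-fold among themselves. The log2 fold change was 1.53 (SE 0.28), and 1.29 to 1.88 when any 1 mouse was left out. *Actb*, which encodes beta-actin, followed with 400, 471 and 478 CPM in KO and 255, 267 and 279 in WT livers, a log2 fold change of 0.74 (SE 0.13).

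*Tubb2a* and *Tubb6* separated in the same livers. *Tubb2a* was 156, 196 and 243 CPM in KO and 116, 119 and 133 in WT Res females, a log2 fold change of 0.68 (SE 0.17). *Tubb6* was 7.74, 8.08 and 10.5 against 4.69, 5.47 and 6.14 CPM (0.68, SE 0.19). The other 5 fitted genes overlapped between the vectors. *Tuba1a* was lower on average in KO (2.45 to 2.81 CPM) than in WT (2.65, 3.15 and 6.94), with the highest value in mouse 13, and *Tubb4b* differed by -0.29 (SE 0.15) on the log2 scale. Thus 4 of 9 genes were higher in KO without overlap, in a comparison in which 11.6% of all genes were, and the median log2 fold change was 0.29 over the 9 genes and -0.02 over all genes. Of the stellate cell and myofibroblast markers fitted there, 1 of 8 was above 0 (median -0.82). The 10 listed markers summed to 54.6, 58.5 and 68.2 CPM in KO and 56.8, 61.5 and 213 in WT livers. The value of 213 was that of WT mouse 13. Above 0 were also 0 of 4 fitted cholangiocyte (median -1.51) and 5 of 12 macrophage markers (-0.13). Other lists leaned up: 7 of 8 endothelial (0.27), 7 of 8 lymphocyte and neutrophil (0.52) and 8 of 10 hepatocyte markers (0.24) were above 0. The part of these cell types was not tested.

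In WDA males, 6 of 10 genes were higher in KO without overlap, where 7.12% of all genes were. *Actg1* was 265, 375 and 419 CPM in KO and 157, 188 and 235 in WT livers (log2 fold change 0.90, SE 0.23). *Tubb2a* was 93.9, 134 and 367 CPM against 47.4, 78.9 and 82.3 (1.55, SE 0.52). The highest KO value of each of the 6 belonged to mouse 17. Without this liver the log2 fold change was 0.74 for *Actg1*, 0.73 for *Tubb2a*, 0.59 for *Tubb6*, 0.60 for *Tuba1a*, 0.40 for *Tubb5* and 0.27 for *Tuba1b*. With it, the last 4 had 1.37, 1, 0.75 and 0.79. *Tubb4b* was the same on average, at 110 ± 7.11 and 112 ± 7 CPM (SD, n = 3). The median over the genes was 0.84 with and 0.33 without mouse 17, where the median over all genes was 0. Markers of several other cell types were higher on average in the KO livers too. Of the stellate cell and myofibroblast markers, 10 of 10 had a log2 fold change above 0 (median 1.75, and 0.54 without mouse 17). So did 7 of 7 fitted cholangiocyte markers (2.13) and 6 of 6 fitted lymphocyte and neutrophil markers (1.20, and 0.41 without mouse 17). Without mouse 17 it was 5 of 7 cholangiocyte markers (0.49). Endothelial and hepatocyte markers leaned the other way, with 2 of 8 (-0.15) and 1 of 10 (-0.24) above 0. Without mouse 17 these were 2 of 8 (-0.08) and 2 of 10 (-0.12). The stellate cell markers summed to 60.7, 157 and 530 CPM in KO and 49.1, 51.6 and 129 in WT livers, and their part was not tested.

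In WDA females no gene separated KO from WT livers, where 5.29% of all genes were higher and 3.63% lower without overlap. *Actg1* was 468, 232 and 459 CPM in KO and 231, 313 and 436 in WT livers. Its log2 fold change was 0.21 (SE 0.35), 0.05 without KO mouse 1, whose *Kdm5b* lay in the WT range, and 0.50 without WT mouse 7. WT mouse 7 set the WT averages of the tubulins: the log2 fold change of *Tubb2a* was 0.06 (SE 0.61) with and 1.20 without it, and that of *Tubb6* -0.70 (SE 0.45) with and -0.01 without it. In Res males, *Tuba1b* alone did not overlap (28.9 to 34.8 against 22.6 to 27.7 CPM), where 2.16% of all genes were higher without overlap. *Actg1* was 271 and 287 CPM in KO mice 11 and 5 but 113 in mouse 6, below the WT livers (118, 152 and 160), and its log2 fold change was 0.64 (SE 0.32), 0.96 without mouse 6 and 0.41 without mouse 5. *Tubb2a* was 0.67 (SE 0.25) on the same scale and ran from 0.32, without KO mouse 11 (172 CPM), to 0.84, without KO mouse 6, with 0.75 without mouse 5.

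HepKO livers were the most alike of any group in *Actg1*, at 496, 478 and 482 CPM. All 3 exceeded the WT WDA females, as for 10.1% of all genes, with a log2 fold change of 0.55 (SE 0.25), which ran from 0.35 without WT mouse 5 to 0.83 without WT mouse 7. That of *Tubb2a* was 0.08 (SE 0.60) with and 1.19 without WT mouse 7. *Actb* was 546, 521 and 490 CPM in HepKO livers and overlapped with WT mouse 7 (521). Against KO WDA females, *Actg1* and *Tubb6* were higher without overlap, where 5.59% of all genes were, and *Tuba1a* was lower, where 5.05% were. *Tubb6* was 7.83, 8.58 and 9.18 CPM in HepKO and 4.96, 5.01 and 7.66 in KO livers (log2 fold change 0.54, SE 0.20), and *Tuba1a* was 3.10 to 4.06 against 4.30 to 6.49 CPM. Without KO mouse 1 the log2 fold change of *Actg1* went from 0.33 to 0.49, that of *Tubb6* to 0.77 and that of *Tuba1a* from -0.46 to -0.23. When any 1 mouse was left out, *Actg1* ran from 0.07, without KO mouse 2 (232 CPM), to 0.49.

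**Figure D3:**
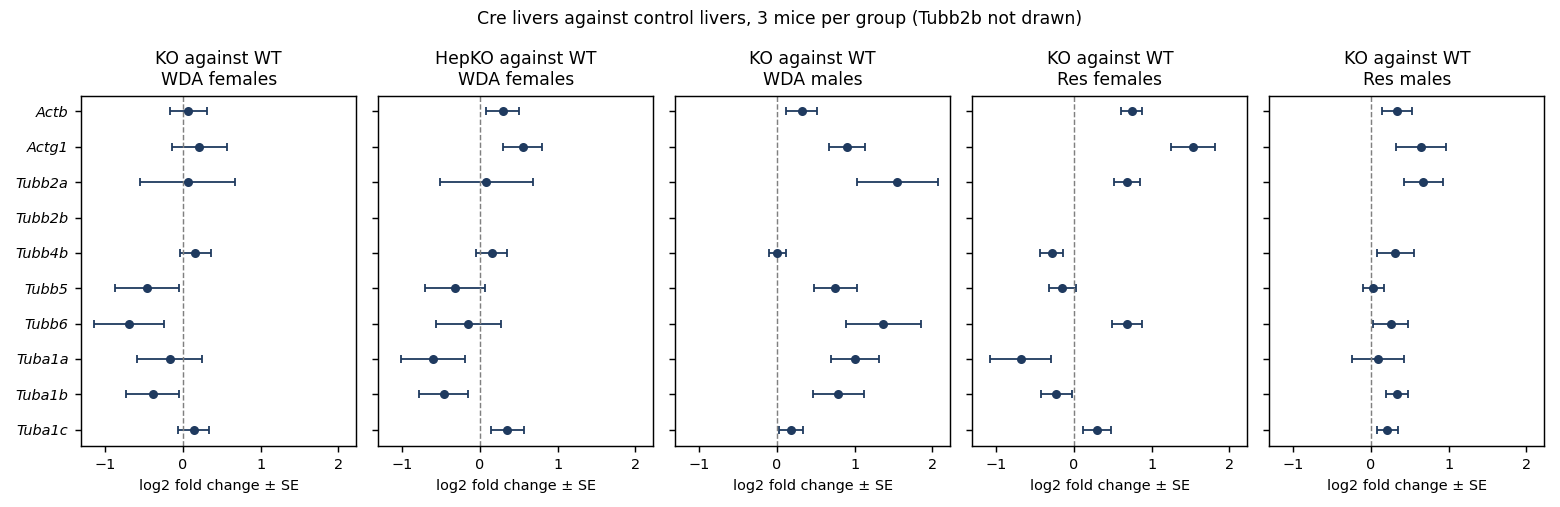
Log2 fold change (x axis) with its standard error for each gene (y axis) in 5 comparisons of Cre with control livers, 3 mice per group; *Tubb2b* is not drawn. *Actg1* lies to the right of 0 in each panel, from 0.21 in WDA females to 1.53 in Res females, and the tubulins spread to either side of 0 in the 3 female panels.

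The ratio of *Actg1* to *Actb* within a library does not depend on scaling between libraries. It ran from 0.425 *Actg1* counts per *Actb* count in KO Res male mouse 6 to 1.59 in KO Res female mouse 4, with a median of 0.808, and exceeded 1 in 4 livers. The 3 KO Res females (1.13, 1.25 and 1.59) were among those 4, with WT Res female mouse 1 (1.08). The other WT Res females had 0.446 and 0.758. In WDA males the ratio was 0.808, 0.829 and 0.861 in KO and 0.492, 0.583 and 0.595 in WT livers, with no overlap. In HepKO livers it was 0.910, 0.918 and 0.983, above the WT WDA females (0.691, 0.786 and 0.837), while KO WDA females (0.636, 0.905 and 0.987) overlapped with them. Res males overlapped too, at 0.425, 0.785 and 0.902 in KO and 0.495, 0.505 and 0.795 in WT livers. FPKM gave the same ratios to within 0.02, from 0.428 to 1.61.

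**Figure D4:**
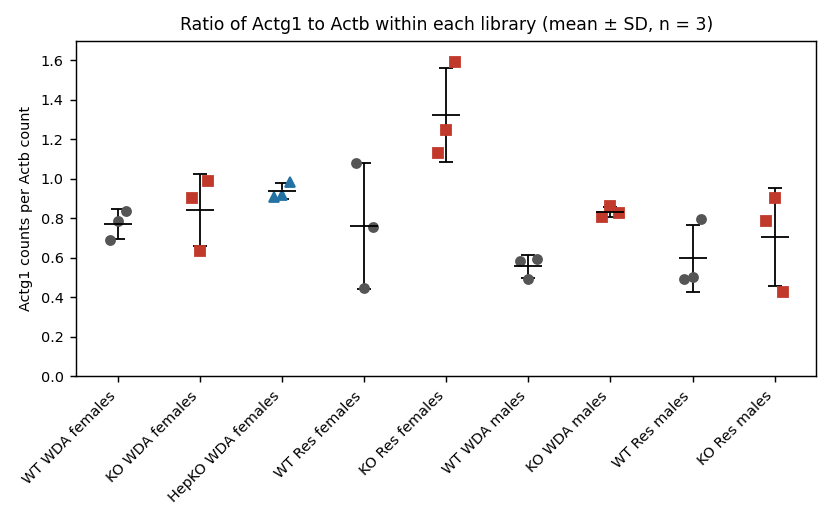
*Actg1* counts per *Actb* count (y axis, from 0) in each liver by group (x axis), with the group mean ± SD of 3 mice. The KO Res females lie highest, at 1.13 to 1.59, and the WT WDA males are the lowest group on average, at 0.557 ± 0.0562.

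Comparing Res with WDA livers places the genes before and after the end of both alcohol and Western diet, with the confounding given above. *Actb* was lower in Res than in WDA livers of WT mice in either sex without overlap: 255 to 279 against 334 to 521 CPM in females (log2 fold change -0.66, SE 0.22) and 202 to 302 against 319 to 396 CPM in males (-0.47, SE 0.15). In KO females it was 450 ± 42.9 and 449 ± 77.9 CPM (SD, n = 3). *Actg1* in KO females was higher in Res (540 to 638) than in WDA (232 to 468), while in WT females it was lower on average (202 ± 82.1 against 327 ± 103), with overlap. The log2 fold change of *Actg1* by stage was 0.63 (SE 0.23) in KO females and ran from 0.36, without WDA mouse 2, to 0.78, without WDA mouse 1. In WT females it was -0.71 (SE 0.37) and ran from -1.05, without Res mouse 1, to -0.44, without WDA mouse 7 or Res mouse 12.

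*Tubb4b* was lower in Res livers of KO females (59.4 to 72.6 against 74.2 to 115 CPM) and of WT males (65 to 84.8 against 105 to 118). *Tuba1a* was lower in Res livers of KO females (2.45 to 2.81 against 4.30 to 6.49 CPM) and of KO males (2.71 to 5.43 against 5.58 to 11.9). *Tubb6* was higher in Res livers of KO females (7.74 to 10.5 against 4.96 to 7.66) and of WT males (4.70 to 5 against 3.25 to 3.48), and *Tuba1c* was lower in those of WT males (56 to 62.8 against 63.9 to 82.5).

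Of the 9 genes fitted, those separated by stage were 1 lower in WT females, where 9.34% of all genes were, and 1 lower in KO males, where 5.37% were. In WT males 1 was higher and 3 lower, where 16.6% and 19.2% of all genes were, and in KO females 2 were higher and 2 lower, where 18.5% and 22% were. Leaving out WT WDA female mouse 7 turned the value of *Tubb2a* in WT females from -0.67 to 0.43 on the log2 scale. Leaving out KO WDA male mouse 17 turned that of *Tubb2a* in KO males from -0.70 to 0.08 and that of *Tubb6* from -0.55 to 0.20, and that of *Tuba1a* went from -0.95 to -0.58.

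Across all genes, edgeR called 1361 of 12408 (11%) by stage in WT males and 2550 of 12470 (20.4%) in KO females. Of these, 619 and 1273 were higher in Res, and without scaling factors 587 of 814 and 934 of 2633 were. It called 0% of 12603 genes in WT females (1716 at an unadjusted p under 0.05, 404 by DESeq2) and 0% of 12747 in KO males (819 and 79). The 15 circadian clock genes were among the called: 8 in WT males, led by *Dbp* (log2 fold change -4.21, SE 0.25) and *Nr1d1* (-3.15, SE 0.18), and 8 in KO females, led by *Ciart* (3.27, SE 0.28). The time of day of collection is not given in the sources used here, and its part in the stage differences was not tested.

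Averaged over vector and stage in the 24 WT and KO livers, males had less *Actg1* (228 ± 98.6 CPM, n = 12) than females (376 ± 168, n = 12), a log2 difference of -0.69 (SE 0.19). *Tubb2a* was -0.72 (SE 0.26) on this scale, and -0.65 without mice 7 and 17. *Tubb4b* leaned the other way, at 98.6 ± 20.2 CPM in males and 82 ± 16.8 in females (0.27, SE 0.10). *Tubb5* (0.02), *Tuba1b* (0.07) and *Tuba1c* (-0.06) were nearly equal on average. The ranges of males and females overlapped for each of the 10 genes, and 1255 of 13186 genes (9.52%) were called by sex, 601 of them higher in males. Without scaling factors 297 of 1607 were.

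Genes that act with actin were counted from lists chosen with earlier results of these data known. None of the 25 actin assembly factors passed edgeR's test in any comparison of vectors, in which 0% or 0.0162% of all genes did. By stage in KO females 5 of 25 passed, near the 20.4% of all genes, 3 rising and 2 falling: *Coro1c* and *Coro1a*, which encode coronins that bind actin filaments, rose by 0.72 (SE 0.13, adjusted p = 0.00759) and 0.72 (SE 0.22, adjusted p = 0.0478) on the log2 scale, *Arpc1b* of the branching complex ARP2/3 rose by 0.43, and *Lasp1* (-0.75) and *Cap1* (-0.39) fell. *Coro1a* also rose in WT males (0.87, adjusted p = 0.0221) and was the only 1 of 25 called there, where 11% of all genes were. *Coro1a* is known chiefly from leukocytes, and the leukocyte genes *Ptprc*, *S100a8* and *S100a9* rose with it in both comparisons, and their part in it was not tested. Of these factors, only *Coro1b* differed by sex (0.19 higher in males, adjusted p = 0.0277).

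Of the 20 SRF and MRTF factors and targets, 18 were tested in KO against WT Res females and none passed. The list's median log2 fold change there was -0.20, with 3 of 18 above 0, and all genes had a median of -0.02. The list summed to 330, 355 and 543 CPM in WT livers, the last in mouse 13, whose part in the negative median was not tested. In KO livers it summed to 370, 377 and 398 CPM. *Srf* itself was 20.8 ± 3.03 CPM in KO and 13.3 ± 1.43 in WT livers (log2 fold change 0.64, SE 0.15, adjusted p = 0.11 by edgeR), while *Ccn2*, which encodes a matricellular growth factor, was -1.15 (SE 0.50). In KO against WT WDA males, 18 of 19 were above 0 with a median of 0.61, and without mouse 17 it was 16 of 19 with a median of 0.17. The highest were *Fhl2* (2.38, SE 1.34) and *Tagln2* (1.55, SE 0.53), and none passed. The summed level of the list was highest in mouse 17 of these KO males (800 CPM) and next in WT WDA female mouse 7 (767), with a median of 395 over all livers. By stage, 4 of 18 passed in KO females (20.4% of all genes did) and 3 of 18 in WT males (11% did). *Srf* rose in KO females (0.55, SE 0.15, adjusted p = 0.0285), and the tropomyosin gene *Tpm2* fell in KO females (-1.71, SE 0.28, adjusted p = 0.00426) and WT males (-1.44, SE 0.24, adjusted p = 0.0128). *Tpm1* (-0.46) and *Tagln* (-0.77) fell in KO females, *Ccn1* (-1.23) and *Vcl* (-0.40) in WT males, and *Vcl*, which encodes vinculin, was 0.47 higher in males than in females (adjusted p = 0.000602).

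None of the 21 genes for tubulin folding and autoregulation, *Ttc5* among them, passed the test between vectors, where 0% or 0.0162% of all genes did. By stage 3 of 21 passed in WT males, where 11% of all genes did, and 1 of 21 in KO females, where 20.4% did. In WT males the chaperonin subunit gene *Cct7* (-0.31, adjusted p = 0.0453) and the prefoldin genes *Pfdn1* (-0.57, adjusted p = 0.0312) and *Pfdn2* (-0.42, adjusted p = 0.0367) fell, and in KO females *Cct6a* rose by 0.34 (adjusted p = 0.0445). *Tbcb* and *Tbcd*, cofactors of dimer assembly, were higher in males (0.46 and 0.19, adjusted p = 0.00118 and 0.0494).

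Of the 22 microtubule regulators, 5 passed by stage in WT males (11% of all genes did) and 6 of the 21 fitted in KO females (20.4% did). *Mapre2*, which encodes a protein that binds microtubule ends, rose by stage in KO females (0.56, adjusted p = 0.0207) and WT males (0.47, adjusted p = 0.0468). *Tubgcp2*, a gene of the gamma-tubulin ring complex, fell in each (-0.58 and -0.52, adjusted p = 0.0327 and 0.0359). *Clasp2*, *Clip1* and *Kif5b* rose in KO females by 0.61, 0.52 and 0.48, and *Stmn1*, a sequestering protein for tubulin dimers, rose in WT males (1.09, adjusted p = 0.0115), where *Dynll1* (-0.62) and *Ckap5* (-0.52) fell. *Mapre2* (-0.34, adjusted p = 0.0233) and *Clasp2* (-0.30, adjusted p = 0.0136) were lower in males than in females. *Atat1*, the acetyltransferase of alpha-tubulin, fell in KO females by stage (-1.22, SE 0.27, adjusted p = 0.0147). Its level in KO against WT Res females was 4.6 ± 0.771 against 12 ± 3 CPM (log2 fold change -1.40, SE 0.24, adjusted p = 0.0858).

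Among the other 12 tubulin genes listed, *Tuba4a*, an alpha-tubulin outside the *Tuba1* cluster, was abundant and steady at 76.9 to 134 CPM. *Tubd1* was the only one called in any comparison, 0.58 higher in males (adjusted p = 0.0133). *Tubb3* and *Tubb1* did not exceed 0.331 and 0.402 CPM. Of the other 5 actin genes, *Acta2*, the smooth muscle actin of activated stellate cells, ranged from 0.488 to 9.60 CPM and was not called in any comparison.

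Keratin genes of the hepatocyte intermediate filament fell by stage where many genes were called. *Krt8* fell by 0.91 (SE 0.16, adjusted p = 0.0145) and *Krt18* by 0.78 (SE 0.12, adjusted p = 0.0115) on the log2 scale in WT males, and by 0.76 (adjusted p = 0.0126) and 0.82 (adjusted p = 0.00819) in KO females. *Krt23* fell in KO females (-3.08, SE 0.40, adjusted p = 0.00193) while *Vim* rose (0.52, adjusted p = 0.0326).

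Agreement between the 10 genes was uneven. Spearman's rho of log2 CPM over the 27 livers, which share scaling factors, was at least 0.6 for 10 of 45 pairs and below 0.2 for 22. *Actb* with *Actg1* (0.84), *Tubb2a* with *Tubb6* (0.80) and *Actg1* with *Tubb2a* and *Tubb6* (0.76 each) were the highest. *Tubb5* with *Tuba1b* reached 0.61 and *Tuba1a* with *Tuba1b* 0.63, and 0.50 and 0.54 without mice 7 and 17. The median over the pairs was 0.20, and 0.04 without these livers. For deviations from group means over all 27 livers it was 0.44. *Tubb4b* had the lowest, -0.27 with *Tubb6* and -0.24 with *Actg1*. Within groups, *Tubb5* with *Tuba1b* was highest at 0.82.

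Of 6008 other genes with a mean log2 CPM of at least 4, the tropomyosin gene *Tpm4* (rho with the mean of the 10 0.796, Pearson's r 0.917), *Myadm* (0.774), *Nid1*, a basement membrane gene (0.767), and *Sparc*, a matrix protein gene (0.743), were among the 5 most like the mean of the 10. Without mice 7 and 17 these 4 kept rho of 0.677 to 0.744. For deviations from group means, *Tpm4* had the highest rho (0.931). Over all 27 livers, the 5 genes most like *Actb* were *Rab6a* (0.854), *Lgals3bp* (0.842), *Rdh9* (0.807), *Srebf1*, a regulator of fatty acid synthesis (0.806), and *Slc25a30* (0.801). Without mice 7 and 17 *Tdrp* was most like it (0.888), and the 5 kept 0.767 to 0.829. For deviations from group means, *Rdh9* (-0.024) and *Srebf1* (0.117) lost this likeness and *Rab6a* kept 0.578.

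As a reference gene, *Actb* was uneven in these livers. Its coefficient of variation over the 27 libraries was 26.8%, and that of *Actg1* 48.5%. The 13 other customary reference genes listed ran from 9.05% (*Eef1a1*) through a median of 13.4% to 23.5% (*Gapdh*), and *Rplp0* (9.81%), *Ppia* (10.9%) and *Ywhaz* (11.3%) were among the most even. *Gapdh* fell by stage in WT males (-0.54, adjusted p = 0.0204) and KO females (-0.52, adjusted p = 0.0186). *Hprt* was 0.40 higher in males (adjusted p = 0.00664). The evenness is that of TMM-scaled CPM and so depends on the scaling.

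**Figure D5:**
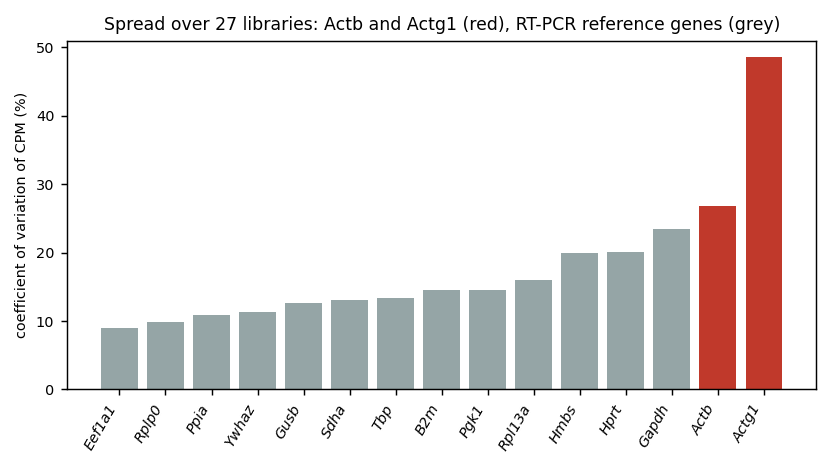
Coefficient of variation of TMM-scaled CPM over 27 livers (y axis, %, from 0) for *Actb* and *Actg1* (red) and 13 genes customary as RT-PCR references (grey). *Actb* (26.8%) and *Actg1* (48.5%) are the 2 least even of the 15.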

How the data were processed

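Whole-liver RNA was sequenced by BGI. Per the labels' processing notes, reads were processed with HISAT and Bowtie2 on GRCm38.p6 (versions and the strand of counting are not given in the sources used here). The authors deposited expected counts per gene, which need not be whole (7.34% to 8.09% of values per table were not), and FPKM. The 4 tables of 16588 to 16725 genes were joined by gene ID, and a gene missing from a table was set to 0.

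Expected counts were rounded. Levels are CPM with TMM factors over all 27 libraries (prior count 2 for log2). Comparisons used edgeR 4.0.16 (R 4.3.3) quasi-likelihood tests, filterByExpr with a minimum count of 10, TMM within the comparison, and Benjamini-Hochberg adjustment over all genes tested, with a threshold of 0.05. The sex fit kept vector and stage as a covariate. Alternatives were DESeq2 1.42.0, other scalings and filters, 1 spread over all groups, limma 3.58.1 on log2(FPKM + 0.1), and leaving out each mouse. The pipeline was tested on simulated data. The 10 genes and the gene lists were chosen with earlier results of these data known.

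Named were all 10 genes, *Kdm5b*, the 5 genes most like the mean of the 10 and the 5 most like *Actb*, and from each list up to 3 called genes at each end of the log2 fold changes, or up to 2 with the largest absolute value where none passed. A gene that these rules named and 1 listed reference gene are not reported here. Other genes named, among them the steady *Tuba4a* and the marker genes, were chosen after their values were seen. Promoters are from RefSeq (GRCm38.p6) and coding sequences from GENCODE vM21. The p-values measure the spread between mice, and depth limits counting error only.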

Additional observations from a re-analysis of the deposited data

How the results depend on the processing

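No paired analysis was possible because mouse numbers name different animals in each group and experiment. Of 1501 values of single genes recomputed under an alternative, 1471 moved by less than 1 SD between replicates and 30 moved by more. Of 162 medians over the 10 genes, 158 stayed within 1 SD. Many alternatives left out 1 of 3 mice in a group, which seldom moved a value by 1 SD, although 21 of the 30 moves came from these. These counts therefore say little about stability. Of the few called values 0 reversed, but uncalled values did change sign, as *Tubb2a* by stage in WT females. The median for KO against WT in Res females went from 0.29 to 0.08 with no filter, which adds *Tubb2b*, and ran from 0.08 to 0.41 when 1 mouse was left out. It ran from 0.33 to 1.02 for KO against WT in WDA males from 0.01 to 0.31 for HepKO against KO, and across or near 0 for HepKO against WT (-0.28 to 0.50), KO against WT in WDA females (-0.30 to 0.29) and WT females by stage (-0.71 to -0.02). With library totals and no scaling factors the median of all genes, within 0.02 of 0 with TMM, became 0.21 in WDA males and -0.19 in Res females (KO against WT), -0.17 in HepKO and -0.13 in KO against WT WDA females, 0.16 by stage in WT males and -0.11 by sex. Genes whose sign turned under another scaling had log2 fold changes of at most 0.15. Counts of called genes depended on the method: with 1 spread over all 9 groups they were 670 for KO against WT in Res females, 49 for HepKO against WT, 0 for HepKO against KO, 1733 by sex, and by stage 840 in WT females, 308 in WT males, 1558 in KO females and 102 in KO males. Without WT Res female mouse 1, KO against WT in Res females had 852 calls, and without WT WDA female mouse 7, HepKO against WT had 349 and WT females by stage 15, while KO males by stage had 10 without WDA mouse 17. By stage, WT males had 106 calls without WDA mouse 21, 203 without mouse 20, 339 without mouse 19 and 501 without Res mouse 8, and KO females had 1026, 1337 and 1624 without Res mice 4, 2 and 3. Library totals gave 814 and FPKM 740 in WT males. The cause of these differences was not tested.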
